A study of Mus musculus with 12 samples.

Results

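The early response of mouse liver to acute deletion of Gdown1 was read from whole-liver RNA sequencing 24 hours after an injection of tamoxifen. The members are 4 of the 12 libraries of the series, chosen by their labels: 2 from DKO TAM livers and 2 from p53KO TAM livers. All mice were C57BL/6 and lacked p53. The DKO TAM mice carried Alb-CreERT2, a tamoxifen-activated Cre recombinase driven by the albumin promoter, on a Gdown1 flox/flox;p53-/- background. The p53KO TAM controls were given tamoxifen too and are labelled p53KO_Gdown1FF, a genotype that names no Cre. The presence of CreERT2 and the deletion therefore go together and cannot be told apart. The age of these mice and the floxed exon are not given in the sources used here. Of the 23420 genes in the files, 13693 passed an expression filter and were tested. For comparison, 4 libraries from 8-week mice without tamoxifen were used, 2 of Gdown1 flox/flox;p53-/- (p53KO) and 2 of Gdown1 flox/flox;Alb-Cre;p53-/- (DKO), in which Alb-Cre deletes the gene during liver development. The remaining 4 libraries, from 7-week mice that keep p53, enter the model, and the Gdown1 flox/flox (FF) livers among them supply the normal level of each gene.

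Gdown1, the product of Polr2m, binds RNA polymerase II. In biochemical work it competes with initiation factors such as TFIIF and makes transcription dependent on the Mediator complex, and it is associated with polymerase paused near promoters. Hepatocytes, in which the albumin promoter is active, secrete most proteins of blood plasma and express a few such genes at very high levels. They also carry out drug oxidation, amino acid breakdown, lipid synthesis and glucose production, and in adult liver they rarely divide.

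Levels are given below as CPM, counts divided by the library size after an adjustment for composition (TMM), in the order replicate 1, replicate 2. A gene is called changed when its edgeR quasi-likelihood p-value, adjusted over all 13693 genes by Benjamini-Hochberg, is under 0.05. The 4 libraries held 5643548 to 8776369 counts, so that 3 counts correspond to 0.312 to 0.626 CPM. The median absolute log2 difference between libraries was 0.167 within p53KO TAM and 0.174 within DKO TAM, against 0.281 to 0.317 between the groups, over the 10022 genes whose mean reached 5 CPM. The titles give each library a number of its own but do not state that it marks an animal, so the p-values cover the spread seen among libraries, whose source is not stated. In whole liver, fewer cells of a type and less RNA per cell cannot be told apart. All 10 hepatocyte markers checked were expressed in the 4 libraries. Y-linked Ddx3y, at 135 and 134 CPM in p53KO TAM and 112 and 111 CPM in DKO TAM, was present in each library. Xist, the RNA of the inactive X chromosome, was 6.46 CPM in DKO TAM replicate 1 and 0.501 to 0.835 CPM in the other 3 libraries.

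Polr2m itself (chr9:71478437-71485983, minus strand, mm10) was counted at 75.9 and 78.7 CPM in p53KO TAM and at 65.9 and 54.6 CPM in DKO TAM. The groups did not overlap, but the log2 difference of -0.36 ± 0.13 (SE) did not pass the test (adjusted p = 0.063). Without DKO TAM replicate 1 it was -0.50 and passed (adjusted p = 0.0399), and with each of the other libraries left out it did not. Counts over the whole gene include exons outside any floxed one, so they are an incomplete check of the deletion. Scaling to library totals alone, without the composition adjustment, raised the median log2 difference of all genes by 0.35. That is about the size of the Polr2m difference, which thus rests on the scaling. Trp53, the gene of p53, was at 3.79 and 3.97 CPM in p53KO TAM and at 8.96 and 10.01 CPM in DKO TAM. Its log2 difference was 1.29 ± 0.28 (adjusted p = 0.0039), a call lost without p53KO TAM replicate 1. The FF livers, which keep p53, had Trp53 at 13.1 and 7.94 CPM, a range that holds both DKO TAM values. The livers without p53 and without tamoxifen differed in the same direction, at 3.07 and 2.79 CPM in p53KO and 8.39 and 8.13 CPM in DKO. The cause of these Trp53 levels was not tested.

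Of the genes tested, 2559 (18.7%) were called between DKO TAM and p53KO TAM, 1179 higher (8.61%) and 1380 lower (10.1%) in DKO TAM. At least 2-fold differences accounted for 455 of those higher (3.32%) and 506 of those lower (3.7%). Genes whose groups did not overlap were more common, 4130 higher (30.2%) and 4016 lower (29.3%). Leaving out p53KO TAM replicate 1 reduced the called genes to 1188, p53KO TAM replicate 2 to 1456 and DKO TAM replicate 2 to 1438, whereas 1952 were called without DKO TAM replicate 1. The split between directions rests on the scaling. The usual composition adjustment put the median log2 difference at 0.01, and scaling to library totals alone put it at 0.36, with 4346 genes called higher (31.7%) and 586 lower (4.28%). Secreted proteins took a smaller share of the counts in DKO TAM. Alb took 6.27% and 6.19% of all counts in p53KO TAM and 1.93% and 1.80% in DKO TAM, and the 10 genes with the most counts in the controls took 19.2% ± 0.0707 (SD, n = 2) and 10.2% ± 0.442. Changes are given relative to the composition-adjusted scale, and the counts with library totals stand beside those of the main gene groups.

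**Figure D1:**
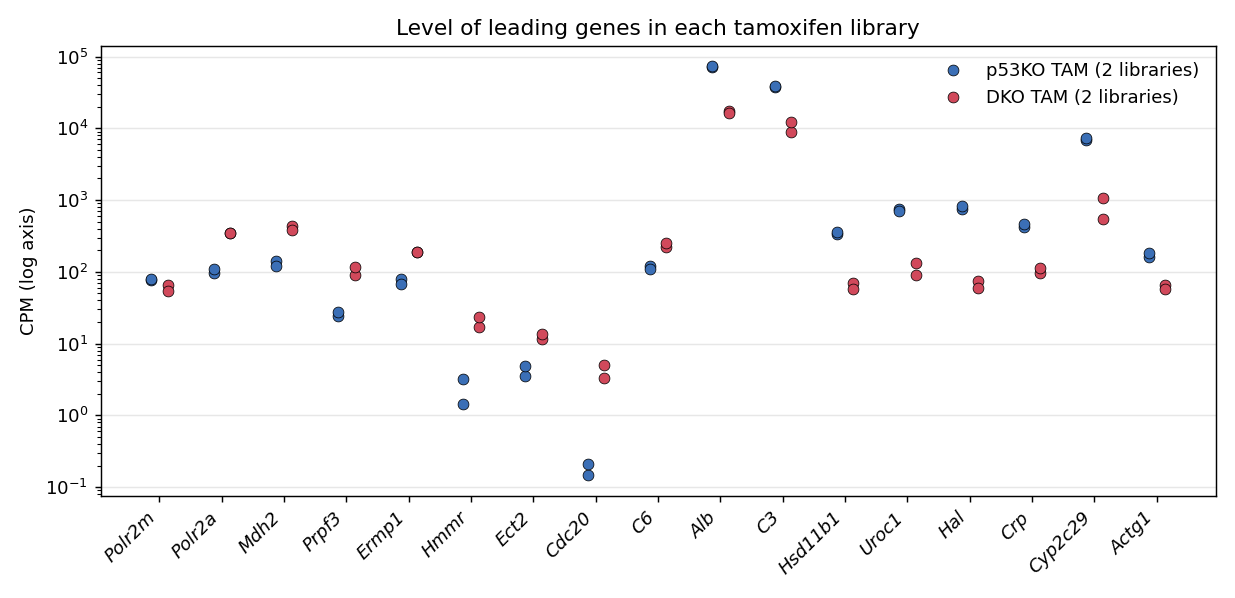
Level of 17 genes in each tamoxifen library, as CPM on a log axis, with 1 point per library, blue for p53KO TAM and red for DKO TAM. Polr2m differs little, Polr2a, Mdh2, Prpf3, Ermp1, the mitotic genes and C6 lie higher in both DKO TAM libraries, and Alb and the genes to its right lie lower. Leaders in fold, p or CPM difference were taken as such only where the groups did not overlap.

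The secreted proteins of hepatocytes fell in large numbers. Genes of the plasma protein lists took 29.95% ± 0.0945 of all counts in p53KO TAM and 20.1% ± 2.24 in DKO TAM (SD, n = 2). Among these lists only the plasma carriers were apart in share, at 16.45% and 16.55% and then 7.57% and 7.98%. Complement and coagulation genes took 8.81% and 8.59% and then 6.42% and 8.69%, with overlap. The shares of apolipoproteins and of acute phase proteins overlapped too. Of 33 plasma carriers and protease inhibitors tested, 25 fell and none rose, with a median log2 difference of -1.12. With library totals 19 fell and none rose, and leaving out each library in turn left 20 to 24. Albumin (Alb, chr5:90460889-90476603, plus strand), the main carrier protein of plasma, was at 72367 and 72970 CPM in p53KO TAM and 17619 and 16501 CPM in DKO TAM. The fall was 4.26-fold (log2 -2.09 ± 0.18, adjusted p = 1.1e-06). Both DKO TAM livers were below both controls, as was required of genes leading in CPM difference. Afm encodes afamin, a vitamin E carrier and a neighbour of Alb in the same gene family; it was at 430 and 478 CPM in the controls and 138 and 120 CPM after deletion (log2 -1.82 ± 0.15, adjusted p = 9.1e-07). Azgp1, a secreted glycoprotein linked to lipid mobilisation, was at 1476 and 1610 CPM and then 590 and 592 CPM (log2 -1.39 ± 0.13). Itih3 encodes a heavy chain of inter-alpha-trypsin inhibitor, which stabilises matrix hyaluronan. Itih3 was at 3167 and 2811 CPM in p53KO TAM and at 418 and 692 CPM in DKO TAM, without overlap (log2 -2.43 ± 0.21). Serpina1e, an alpha-1-antitrypsin gene, fell by 3.43 on the log2 scale from 8690 and 10834 CPM to 779 and 1032 CPM, but it has near-identical copies that share reads, so its own size is uncertain. Trf, the iron carrier transferrin, fell less, from 10001 and 10523 CPM to 5355 and 5963 CPM (log2 -0.86 ± 0.15). These calls held with each of the 4 libraries left out.

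The promoters of the fallen carriers Alb, Afm and Azgp1 are shown because promoters of this list differed in composition from those of other genes. Each line gives the 120 bases before the RefSeq start site, 5′ to 3′ in the direction of the gene (RefSeq, GRCm38.p6; Alb chr5:90460750-90460869, plus strand; Afm chr5:90518829-90518948, plus strand; Azgp1 chr5:137981401-137981520, plus strand; the RefSeq start of Alb lies 19 bases before the start given in the files), with matches to CCAAT on either strand or to TATAA on the gene's strand in capitals.
Alb: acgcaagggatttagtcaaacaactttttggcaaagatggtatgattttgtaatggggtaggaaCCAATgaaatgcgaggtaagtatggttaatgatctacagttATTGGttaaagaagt
Afm: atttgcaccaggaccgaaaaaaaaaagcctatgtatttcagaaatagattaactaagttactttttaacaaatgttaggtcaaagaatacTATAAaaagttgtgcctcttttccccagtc
Azgp1: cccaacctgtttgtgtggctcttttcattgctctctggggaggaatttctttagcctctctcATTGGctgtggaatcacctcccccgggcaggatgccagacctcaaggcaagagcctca
The Alb window holds CCAAT starting 56 and 15 bases before the RefSeq start, Afm holds TATAA 30 bases before it and Azgp1 holds CCAAT 58 bases before it. A promoter was matched by symbol or synonym for 27 of the 33 carriers (81.8%) and for 10462 of 13065 protein-coding genes tested that have a single locus (80.1%). In windows from 250 bases before to 50 after the start, TATAA within 40 to 16 bases before the start was found in 5 of the 27 (18.5%) against 2.45% of all promoters. CCAAT on either strand was found in 17 of the 27 (63%) against 38.6%. The median ratio of observed to expected CpG was 0.187 in the carriers and 0.754 over all promoters, so the carriers' promoters are poor in CpG. For complement and coagulation genes, many of which fell too, a promoter was found for 32 of 41 (78%), under the 80% required here. Among those 32 the median CpG ratio was low as well, at 0.249. TATAA was found in 0 of them and CCAAT in 8 (25%), so these 2 traits of the carriers were not seen there. A match is a description of the letters and not of a bound site.

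Most complement and coagulation factors were called lower on the composition-adjusted scale. Of 41 tested, 29 fell and 2 rose, with a median log2 difference of -0.68; with library totals 20 fell and 5 rose. Leaving out each library left 20 to 26 lower. C3, the central protein of complement, was at 38257 and 38576 CPM in p53KO TAM and 8840 and 12201 CPM in DKO TAM (log2 -1.87 ± 0.19, adjusted p = 4.2e-06). Masp1, a protease of the lectin pathway, was at 224 and 226 CPM and then 85.7 and 78.6 CPM (log2 -1.45 ± 0.12). Its partner Mbl2, a mannose-binding lectin, was at 160 and 163 CPM in the controls and at 72.8 and 59.7 CPM after deletion. The controls of both genes lay above both DKO TAM livers. The contact-phase proteases F11 and Klkb1 fell as well, by 1.71 and 1.49 on the log2 scale, F11 from 192 and 189 CPM to 56.9 and 59.8 CPM. C6, a component of the membrane attack complex, went the other way, from 120 and 110 CPM to 219 and 254 CPM (log2 1.04 ± 0.16, adjusted p = 0.00031). None of the 3 fibrinogen chains was called lower. Fgb was at 12210 and 10558 CPM in p53KO TAM and at 10187 and 16613 CPM in DKO TAM, with overlap (log2 0.24 ± 0.21, adjusted p = 0.48), and Fgg was at 6498 and 5925 CPM and then 7192 and 11218 CPM (log2 0.57 ± 0.20, adjusted p = 0.06). Fga was called higher at 0.60 ± 0.19, from 9671 and 8407 CPM to 10702 and 16677 CPM, a call lost without p53KO TAM replicate 1, p53KO TAM replicate 2 or DKO TAM replicate 2. DKO TAM replicate 2 was the highest library for all 3 chains.

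Other secreted proteins were mixed. Among 22 acute phase proteins 2 fell and none rose, a share near that of all genes. With library totals, and likewise without DKO TAM replicate 1, 1 fell and 3 rose. One of these was Crp, at 423.6 and 457.7 CPM in p53KO TAM and 97.4 and 112 CPM in DKO TAM (log2 -2.07 ± 0.15, adjusted p = 1.7e-07). Among 20 apolipoproteins and lipid carriers 6 fell and 3 rose, with a median of -0.18; with library totals 4 fell and 6 rose, with a median of 0.16. Apoa1, the main protein of high-density lipoprotein, fell from 4179 and 3686 CPM to 1894 and 2056 CPM. Apoc2, the cofactor of lipoprotein lipase, rose from 115 and 121 CPM to 264 and 283 CPM (log2 1.21 ± 0.23), and Lcat, which esterifies cholesterol in plasma, rose from 190 and 205 CPM to 326 and 284 CPM (log2 0.63 ± 0.12). Apob, the structural protein of very-low-density lipoprotein, was at 26079 and 28312 CPM and then 21398 and 18663 CPM, which did not pass the test (log2 -0.44 ± 0.17, adjusted p = 0.09).

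**Figure D2:**
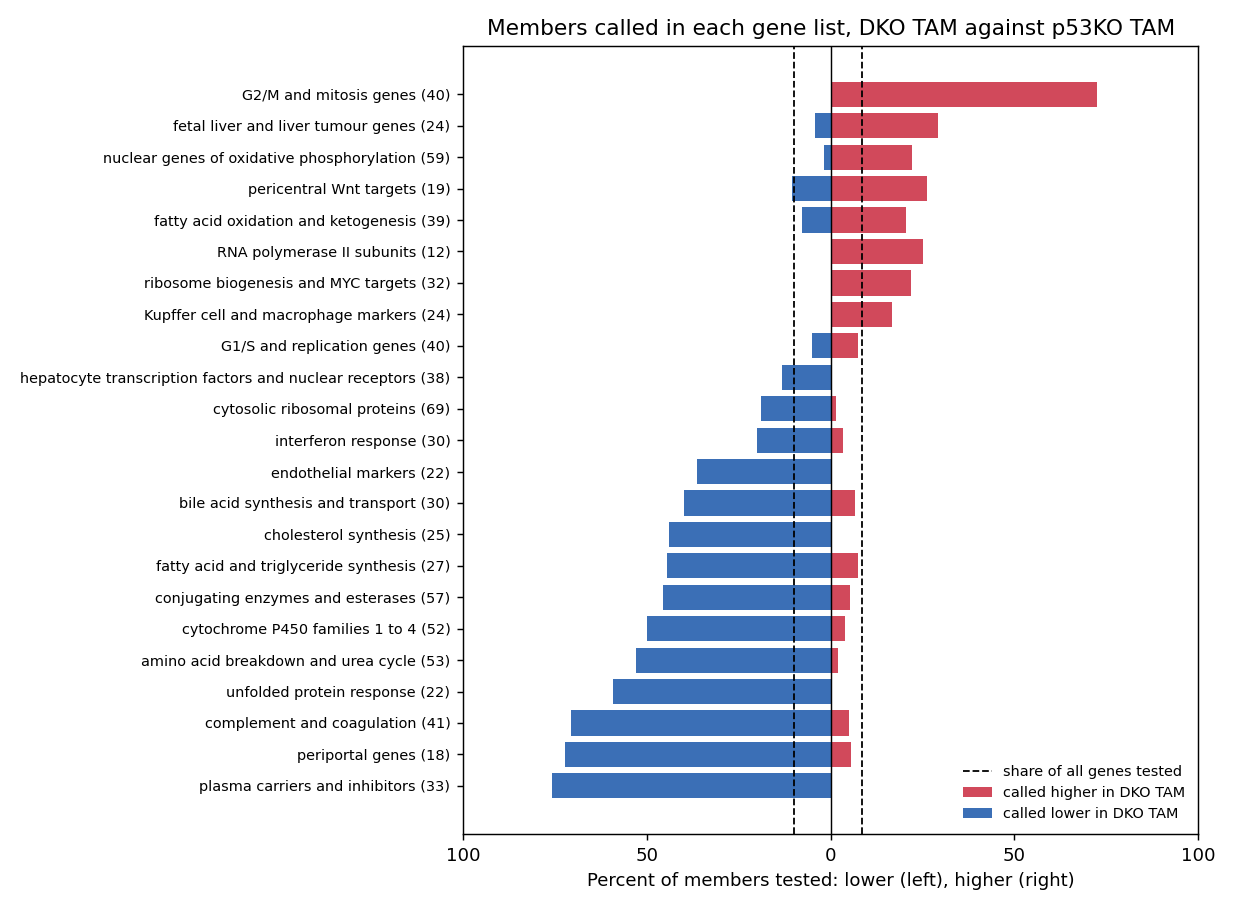
Percent of tested members called higher (red, to the right) and lower (blue, to the left) in DKO TAM against p53KO TAM for 23 gene lists, with the number tested in brackets and dashed lines at the shares of all genes tested (8.61% and 10.1%). The G2/M list stands furthest to the right, and plasma carriers, periportal genes and complement and coagulation stand furthest to the left.

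Enzymes of foreign compound metabolism fell in large numbers. Of 52 cytochrome P450 genes of families 1 to 4, which oxidise drugs, steroids and fatty acids, 26 fell and 2 rose (median log2 -0.96; 21 and 7 with library totals). The count lower was 17 without DKO TAM replicate 2 and 19 to 24 without each other library. Cyp2c29 fell from 6861 and 7384 CPM to 1070 and 547 CPM (log2 -3.14 ± 0.27, adjusted p = 7.1e-06), within a family of close copies whose reads may be shared. Cyp4f14, a fatty acid hydroxylase, fell from 185 and 230 CPM to 49.7 and 38.5 CPM, and Cyp2j5 from 1235 and 1381 CPM to 473 and 438 CPM. Cyp2d26 fell from 413 and 361 CPM to 127 and 102 CPM, whereas its family member Cyp2d9 rose from 98.9 and 105 CPM to 307 and 186 CPM (log2 1.27 ± 0.21, adjusted p = 0.0011). Cyp2e1, the ethanol-oxidising enzyme, was at 2643 and 3460 CPM and then 2687 and 2152 CPM, with overlap and no call (log2 -0.33 ± 0.20, adjusted p = 0.28). Of 57 conjugating enzymes and esterases 26 fell and 3 rose (median -0.70; 17 and 7 with library totals). Of 30 genes of bile acid synthesis and transport 12 fell and 2 rose (median -0.65), whereas with library totals 9 fell and 7 rose (median -0.30). Slco1a1, an organic anion uptake transporter, fell from 344 and 431 CPM to 104 and 85.5 CPM (log2 -2.03 ± 0.18). Ces2e, a carboxylesterase, rose from 48.7 and 44.9 CPM to 131 and 115 CPM (log2 1.39 ± 0.13, adjusted p = 2.2e-06). Cyp7a1, the rate-limiting enzyme of bile acid synthesis, stood at 120 and 238 CPM and then 306 and 401 CPM, a difference that did not pass (log2 0.99 ± 0.63, adjusted p = 0.34).

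Many genes of amino acid breakdown fell, among them the histidine pathway. Of 53 genes of amino acid breakdown and the urea cycle 28 fell and 1 rose (median log2 -0.62; 21 and 4 with library totals), and 19 to 26 were lower without each library. Hal, Uroc1 and Amdhd1 encode the enzymes that open histidine degradation, in that order. Hal was at 752 and 833 CPM in p53KO TAM and 74.0 and 58.7 CPM in DKO TAM (log2 -3.58 ± 0.36, adjusted p = 0.00025). Uroc1 (chr6:90333289-90364548, plus strand) was at 747 and 706 CPM and then 133 and 91.6 CPM, a 6.47-fold fall (adjusted p = 3.9e-08). Amdhd1 was at 161 and 187 CPM and then 57.7 and 41.8 CPM (log2 -1.80 ± 0.18). For each of the 3 enzymes both DKO TAM livers lay below both controls, as was required of Uroc1, a leader by p. Of the methionine cycle and its outflow, Cbs, which makes cystathionine, fell from 648 and 547 CPM to 154 and 195 CPM, and Ahcy, which splits S-adenosylhomocysteine, fell from 266 and 280 CPM to 113 and 107 CPM. Tat, the tyrosine aminotransferase, fell from 2231 and 3172 CPM to 1071 and 1206 CPM. Cps1, the entry enzyme of the urea cycle, was at 4603 and 5022 CPM and then 3392 and 3563 CPM, a log2 difference of -0.47 ± 0.18 that did not pass (adjusted p = 0.083). The member called higher was Mccc1, of leucine breakdown, from 85.2 and 78.1 CPM to 114 and 101.3 CPM (log2 0.40 ± 0.13, adjusted p = 0.039), a call lost without each of the 4 libraries. Aadat, a kynurenine aminotransferase outside the list, rose from 40.9 and 51.4 CPM to 91.2 and 84.7 CPM (log2 0.94 ± 0.15).

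Lipid synthesis and glucose metabolism held more lower than higher genes. Of 27 genes of fatty acid and triglyceride synthesis 12 fell and 2 rose (median log2 -0.78; 9 and 6 with library totals), with 9 to 13 lower without each library. Acacb, which makes malonyl-CoA at mitochondria and so restrains fatty acid entry, fell from 69.8 and 67.8 CPM to 20.94 and 19.03 CPM (log2 -1.78 ± 0.15, adjusted p = 1.1e-06). Acly, which makes cytosolic acetyl-CoA, fell from 258 and 206 CPM to 89.1 and 84.6 CPM. Thrsp, a lipogenic nuclear protein, fell from 139 and 162 CPM to 22.2 and 10.1 CPM, and Srebf1, the lipogenic transcription factor, from 129 and 115 CPM to 42.3 and 36.4 CPM. Of 25 cholesterol synthesis genes 11 fell and none rose (median -0.67; 7 and 0 with library totals), but the count was 5 without p53KO TAM replicate 1, 7 without DKO TAM replicate 1 and 15 without p53KO TAM replicate 2. Nsdhl, a sterol dehydrogenase, kept its call in each case, at 45.6 and 44.5 CPM and then 16.1 and 14.9 CPM (log2 -1.53 ± 0.15). Among 31 genes of glucose, glycogen and fructose metabolism 9 fell and 1 rose (median -0.53; 6 and 5 with library totals). Gckr, the regulator of glucokinase, fell from 97.0 and 87.5 CPM to 31.1 and 30.3 CPM, and Pck1, a rate-setting enzyme of glucose production, from 3194 and 3159 CPM to 1204 and 960 CPM (log2 -1.55 ± 0.25).

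Fatty acid oxidation and mitochondrial respiration held a share of higher genes. Of 39 oxidation and ketogenesis genes 8 rose and 3 fell (median log2 0.15; 23 and 2 with library totals). The higher count was 4 without p53KO TAM replicate 1, p53KO TAM replicate 2 or DKO TAM replicate 1, and 9 without DKO TAM replicate 2. Without DKO TAM replicate 1, 9 of the list were lower. Acot2 and Acot1, thioesterases that cut fatty acyl-CoA in mitochondria and cytosol and are close copies, rose together. Acot2 went from 10.3 and 5.22 CPM to 70.8 and 56.8 CPM (log2 2.98 ± 0.25, adjusted p = 1.8e-06) and Acot1 from 5.25 and 2.71 CPM to 23.8 and 15.9 CPM. Eci2, an isomerase for unsaturated fatty acids, rose from 94.99 and 86.23 CPM to 244 and 216 CPM, and Hadhb, a subunit of the mitochondrial trifunctional protein, from 57.1 and 48.2 CPM to 116 and 79.5 CPM. Mdh2, the malate dehydrogenase of the citric acid cycle, was among the genes with the smallest p, at 140 and 123 CPM in p53KO TAM and 431 and 384 CPM in DKO TAM (log2 1.64 ± 0.13, adjusted p = 6e-07). Of 59 nuclear genes of oxidative phosphorylation 13 rose and 1 fell (median 0.23; 40 and 0 with library totals). The higher count was 4 without p53KO TAM replicate 1, 4 without p53KO TAM replicate 2, 7 without DKO TAM replicate 1 and 8 without DKO TAM replicate 2. The individual differences were small. Cox6b1, a subunit of cytochrome oxidase, rose from 31.0 and 30.1 CPM to 50.7 and 50.1 CPM (log2 0.72 ± 0.13, adjusted p = 0.0012), and Sdhd, of complex II, from 71.2 and 69.9 CPM to 102 and 106 CPM.

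Hepatocytes express different genes near the portal vein and near the central vein, and both kinds were read. Of 18 periportal genes 13 fell and 1 rose, with a median log2 difference of -1.61 (12 and 1 with library totals); 8 were lower without p53KO TAM replicate 2, DKO TAM replicate 1 or DKO TAM replicate 2, and 9 without p53KO TAM replicate 1. Alb, Hal, Uroc1 and Pck1 belong to this list as well as to those above, so the lists are not separate evidence. Sult5a1, a periportal sulfotransferase, fell from 9.47 and 6.47 CPM to 0.312 and 0.501 CPM (log2 -4.29 ± 0.46). Of 19 pericentral targets of Wnt signalling 5 rose and 2 fell (median 0.29; 8 and 1 with library totals; 4 to 5 higher without each library). Rhbg, an ammonium transporter, rose from 3.35 and 3.13 CPM to 11.04 and 8.262 CPM, and Notum, a secreted inhibitor of Wnt, from 9.62 and 7.31 CPM to 26.6 and 15.5 CPM. Slc13a3, a dicarboxylate transporter, rose from 22.1 and 9.19 CPM to 51.7 and 59.7 CPM. Glul, glutamine synthetase, was at 316 and 250 CPM and then 353 and 353 CPM (log2 0.32 ± 0.21, adjusted p = 0.33), and Axin2, a feedback inhibitor in the same pathway, at 16.6 and 12.7 CPM and then 13.4 and 17.0 CPM, with overlap. The test did not separate the groups for either.

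Most transcription factors of hepatocytes were not called. Of 38 hepatocyte transcription factors and nuclear receptors 5 fell and none rose, and their median was -0.26; with library totals 2 fell and 8 rose, and the median was 0.08. Hnf4a, a master regulator of hepatocyte genes, was at 631 and 852 CPM in p53KO TAM and 705 and 660 CPM in DKO TAM (log2 -0.12 ± 0.18, adjusted p = 0.69). Cebpa, another such factor, was at 151 and 136 CPM and then 113 and 109 CPM (log2 -0.37 ± 0.17, adjusted p = 0.15). The first overlapped between groups and the second did not.

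Genes of protein folding in the endoplasmic reticulum fell beside the secreted proteins. Of 22 genes of the unfolded protein response 13 fell and none rose (median log2 -0.60; 5 and 2 with library totals). The count lower was 7 without DKO TAM replicate 1 and 8 without p53KO TAM replicate 1. Xbp1, the transcription factor of this response, was at 196 and 185 CPM in p53KO TAM and 103 and 122 CPM in DKO TAM (log2 -0.76 ± 0.13, adjusted p = 0.00075). Herpud1 and Syvn1, of the machinery that removes misfolded proteins, fell from 182 and 295 CPM to 85.3 and 68.1 CPM and from 170 and 120 CPM to 59.0 and 67.3 CPM. Of 27 genes of the integrated stress response 6 fell and 1 rose (median -0.20; 5 and 3 with library totals). Atf5, a stress-induced factor, fell from 425 and 399 CPM to 189 and 202 CPM (log2 -1.07 ± 0.13). Gdf15, a secreted stress hormone, fell from 29.7 and 24.4 CPM to 7.29 and 8.26 CPM (log2 -1.81 ± 0.25, adjusted p = 0.00012). Ddit3, the apoptosis-linked factor CHOP, was low throughout, at 4.22 and 6.26 CPM and then 5.94 and 7.26 CPM, without a call.

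Among the lists, the highest share of higher genes was in that of G2 and mitosis. Of 40 tested, 29 rose and none fell, with a median log2 difference of 1.81 (36 and 0 with library totals); 21 to 27 rose without each library. The levels stayed low: the summed CPM of the list was 99.5 and 99.4 in p53KO TAM and 274 and 399 in DKO TAM. Hmmr (chr11:40701388-40733437, minus strand), a spindle and hyaluronan-binding protein, was at 3.21 and 1.46 CPM and then 17.2 and 23.3 CPM (log2 3.02 ± 0.26, adjusted p = 1.1e-06). Kif20a, a kinesin of cytokinesis, was at 2.04 and 2.71 CPM and then 8.96 and 14.3 CPM, and Aurka, a spindle kinase, at 1.89 and 2.92 CPM and then 8.44 and 10.5 CPM. Ect2 (chr3:27097222-27153878, minus strand), which activates RhoA for cytokinesis, was at 3.50 and 4.80 CPM and then 11.6 and 13.5 CPM (log2 1.62 ± 0.25, adjusted p = 0.00032). All 4 genes were higher in both DKO TAM livers, as was required of Hmmr, a leader by p. Cdc20 (chr4:118432901-118437343, minus strand), an activator of the anaphase-promoting complex, had 2 counts over both control libraries and 72 over both DKO TAM libraries, a 23.9-fold ratio with an exact 95% interval of 6.37 to 201 that covers counting error alone. Top2a, the DNA topoisomerase of dividing cells, rose from 9.76 and 7.10 CPM to 15.8 and 15.3 CPM (log2 0.86 ± 0.20), a call lost without p53KO TAM replicate 2.

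The promoters of Hmmr, Ect2 and Cdc20 are shown because CCAAT and TTTGAA, the letters read by the factor NF-Y and found in the CHR element of mitotic genes, were frequent in this list. Each is again the 120 bases before the RefSeq start, 5′ to 3′ along the gene (RefSeq, GRCm38.p6; Hmmr chr11:40733438-40733557, Ect2 chr3:27153879-27153998, Cdc20 chr4:118437344-118437463, all minus strand), with CCAAT or TTTGAA on either strand in capitals.
Hmmr: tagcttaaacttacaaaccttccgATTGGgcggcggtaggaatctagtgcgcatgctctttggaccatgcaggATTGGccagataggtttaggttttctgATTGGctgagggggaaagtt
Ect2: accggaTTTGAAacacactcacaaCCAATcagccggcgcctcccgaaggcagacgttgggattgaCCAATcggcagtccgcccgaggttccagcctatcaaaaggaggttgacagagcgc
Cdc20: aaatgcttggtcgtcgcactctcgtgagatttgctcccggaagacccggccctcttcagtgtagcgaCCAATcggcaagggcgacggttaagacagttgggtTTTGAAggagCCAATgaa
Hmmr holds CCAAT 96, 47 and 20 bases before the start, Ect2 at 96 and 55 bases with TTTGAA at 114, and Cdc20 at 53 and 8 bases with TTTGAA at 18. Of 34 G2/M promoters found (85% of the list), 26 held CCAAT on either strand (76.5%, against 38.6% of all promoters) and 22 held TTTGAA on either strand (64.7%, against 12.2%). TATAA within 40 to 16 bases before the start was in 0 of the 34, and the median CpG ratio was 0.874. CCAAT was also frequent in other lists, in 20 of 32 promoters of the G1/S and replication genes (62.5%), of which few were called, and in 63% of the carriers described above. TTTGAA was in 4 of the 32 (12.5%) and in 5 of the 27 carriers (18.5%). A promoter was found for 941 of the 1179 genes called higher (79.8%) and 1047 of the 1380 called lower (75.9%). These totals include genes that are not protein-coding or lack a single locus, which the 80.1% of all promoters leaves out. Without such genes the totals are 1154 and 1327. On the wider base both shares are under the 80% required here, so promoters of these sets were not read.

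Most genes of DNA replication were not called. Of 40 genes of G1/S and replication 3 rose and 2 fell, shares below those of all genes, with a median log2 difference of 0.14 (10 and 1 with library totals). Without DKO TAM replicate 2 or p53KO TAM replicate 1 none of them was called higher. Tk1, the thymidine kinase of S phase, fell from 15.7 and 12.9 CPM to 4.17 and 2.50 CPM (log2 -2.09 ± 0.30, adjusted p = 0.00014). Ccnd1, the cyclin that drives entry into the cycle, was at 69.2 and 50.3 CPM and then 59.0 and 30.7 CPM (log2 -0.42 ± 0.40, adjusted p = 0.53), and Myc at 10.3 and 9.19 CPM and then 7.29 and 10.9 CPM, both with overlap. Of 24 replication-dependent histone genes 5 rose and 1 fell (6 and 0 with library totals), with 2 to 4 higher without each library, and close copies make single members uncertain.

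Among the genes of transcription, the largest subunit of the enzyme that Gdown1 binds stood out in size. Polr2a (chr11:69734410-69758223, minus strand), the catalytic subunit of RNA polymerase II, was at 94.99 and 108.6 CPM in p53KO TAM and 347 and 346 CPM in DKO TAM. Both deleted livers were above both controls, by 3.41-fold (log2 1.77 ± 0.13, adjusted p = 1.7e-07). Polr2b, the second largest subunit, rose from 101.2 and 105.6 CPM to 153 and 160 CPM (log2 0.60 ± 0.12, adjusted p = 0.0025). Polr2e, shared by the 3 nuclear polymerases, was called at 0.77 ± 0.25, from 7.43 and 8.14 CPM to 12.7 and 13.8 CPM, but lost its call without each of the 4 libraries. The other 9 of the 12 subunits tested were not called, and the list's median was 0.65, or 0.999 with library totals, where 7 rose. Of 34 factors of pausing, elongation and termination 4 rose and none fell (median 0.20, and 21 and 0 with library totals), against 8.61% and 10.1% of all genes. They included Supt5, a subunit of the pausing factor DSIF, from 54.5 and 59.5 CPM to 78.5 and 87.1 CPM, whose call was lost without p53KO TAM replicate 1 or DKO TAM replicate 2. The higher count was 0 without the first of these libraries and 1 without the second. Of 30 Mediator subunits 3 rose and 3 fell, shares near those of all genes. Without each library 0 to 2 rose and 0 to 1 fell, but with library totals 18 rose and none fell. Among 27 immediate early genes 1 rose and 1 fell (4 and 0 with library totals), shares below those of all genes. Fos, at 9.18 and 3.13 CPM and then 7.60 and 9.51 CPM, overlapped between groups.

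Further genes led the comparison by p or by fold. Neat1, the nuclear RNA on which paraspeckles form, fell from 835 and 726 CPM to 154 and 148 CPM (log2 -2.37 ± 0.14, adjusted p = 3.5e-08). Malat1, the nuclear RNA next to it, was at 12846 and 13662 CPM and then 12746 and 11015 CPM, without a call (log2 -0.16 ± 0.16, adjusted p = 0.54). In the other direction, Prpf3, of the tri-snRNP of the spliceosome, was at 23.89 and 27.98 CPM in p53KO TAM and 90.7 and 117 CPM in DKO TAM (log2 2.01 ± 0.16, adjusted p = 7e-07). Snrpa1, of the U2 particle, was at 12.1 and 10.4 CPM and then 39.2 and 48.4 CPM (log2 1.95 ± 0.18). Mettl16, the methyltransferase of U6 RNA, was at 14.9 and 13.8 CPM and then 44.0 and 50.3 CPM (log2 1.71 ± 0.15). Every DKO TAM value exceeded every control value for these 3 genes, as the rule by which they were named required. Ermp1, a protease of the endoplasmic reticulum, and Rdh16, a retinol dehydrogenase, were also among the leaders, Ermp1 at 80.0 and 67.7 CPM and then 189 and 190 CPM and Rdh16 at 61.9 and 58.7 CPM and then 178 and 148 CPM. Of 28 splicing regulators 3 rose and 3 fell, shares near those of all genes, with 0 to 2 in either direction without each library; with library totals 12 rose and none fell. The largest folds upward came from genes nearly silent in the controls. Hrasls, a phospholipid acyltransferase, had 1 count in the controls and 156 after deletion (103-fold, exact 95% interval 18.3 to 4108), and Pkp1, a desmosomal plakophilin, had 1 and 91 (60.3-fold, 10.6 to 2407). Ptprz1, a receptor phosphatase best known from the nervous system, was at 0.437 and 0.418 CPM and then 9.79 and 9.14 CPM (log2 4.41 ± 0.48, adjusted p = 9.8e-06).

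Cytosolic ribosomal protein genes were mostly uncalled. Of 69 tested, 13 fell and 1 rose with a median of -0.22, whereas with library totals 2 fell and 8 rose with a median of 0.13, so their direction rests on the scaling. The count lower was 2 without p53KO TAM replicate 1 and 5 without DKO TAM replicate 1. Rps9 fell from 88.7 and 75.2 CPM to 33.9 and 40.9 CPM (log2 -1.14 ± 0.17) and kept its call with each library left out. Of 32 ribosome biogenesis genes 7 rose and none fell (16 and 0 with library totals), a count of 0 without p53KO TAM replicate 1 and 1 without DKO TAM replicate 2. Among the genes named for an early effect unlike that in DKO, Actg1, gamma-actin, fell from 164 and 183 CPM to 65.7 and 57.3 CPM (log2 -1.49 ± 0.17) and Tubb5, a beta-tubulin, from 110 and 91.9 CPM to 47.1 and 49.3 CPM (log2 -1.07 ± 0.14).

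Lists of stress and damage genes were read in this background without p53, against the 8.61% and 10.1% of all genes called higher and lower. Of 35 p53 targets 5 rose and 1 fell (13 and 1 with library totals), with 2 to 3 higher without each library. Cdkn1a, the p21 inhibitor, was at 3.93 and 6.47 CPM in p53KO TAM and at 4.06 and 19.03 CPM in DKO TAM, apart only in DKO TAM replicate 2 (log2 1.16 ± 0.95, adjusted p = 0.46). Mdm2, the ligase that degrades p53, was at 52.0 and 58.7 CPM and then 56.9 and 60.2 CPM. Of 24 genes of DNA damage response and repair 6 rose and 1 fell (11 and 0 with library totals), with 3 to 5 higher without each library. Xrcc1, a scaffold of single-strand break repair, rose from 4.95 and 4.59 CPM to 9.90 and 12.3 CPM (log2 1.20 ± 0.24, adjusted p = 0.0023). Of 21 inflammatory genes 4 rose and none fell (7 and 0 with library totals; 2 to 6 higher without each library). Icam1, an adhesion molecule, rose from 27.2 and 28.8 CPM to 44.7 and 62.1 CPM. Of 30 interferon-response genes 6 fell and 1 rose (5 and 1 with library totals), and the count lower was 2 without DKO TAM replicate 2, 3 without p53KO TAM replicate 1 and 8 without DKO TAM replicate 1. Of 23 targets of the oxidative stress factor NRF2 3 fell and none rose, whereas 3 rose without DKO TAM replicate 2, and with library totals 5 rose and 3 fell. One that fell was Osgin1, an inhibitor of growth, from 201 and 167 CPM to 38.6 and 18.1 CPM (log2 -2.68 ± 0.35, adjusted p = 0.0015). Of 24 genes of fetal liver and liver tumours 7 rose and 1 fell (median 0.81; 8 and 1 with library totals; 2 to 6 higher without each library). Afp, the fetal counterpart of albumin, was at 6.26 and 3.13 CPM and then 14.6 and 10.9 CPM (log2 1.38 ± 0.26, adjusted p = 0.0018).

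Markers of the other cells of liver were measured beside these groups. The summed CPM of the 10 hepatocyte markers was 118414 and 123073 in p53KO TAM and 52563 and 48017 in DKO TAM, with 6 members lower and none higher. Kupffer cell and macrophage markers summed to 1232 and 1118 and then 1405 and 1409, with 4 of 24 higher and none lower (14 and 0 with library totals; 2 to 5 higher without each library). Cd163, a scavenger receptor of resident macrophages, rose from 16.2 and 13.8 CPM to 36.4 and 38.2 CPM (log2 1.30 ± 0.22, adjusted p = 0.00085), while Clec4f, specific to Kupffer cells, was at 156 and 151 CPM and then 178 and 170 CPM without a call. Endothelial markers summed to 1676 and 1559 and then 1184 and 1118, with 8 of 22 lower and none higher; with library totals 2 fell and 2 rose, and without DKO TAM replicate 2 and p53KO TAM replicate 1 the lower counts were 4 and 3. Kdr, the main receptor for VEGF, fell from 210 and 177 CPM to 105.5 and 95.01 CPM, and Stab2, a sinusoidal scavenger receptor, from 215 and 221 CPM to 130 and 103 CPM. Stellate cell and fibroblast markers summed to 1393 and 1513 and then 1417 and 1055, with 6 of 25 lower and 1 higher (median -0.26). The lower count was 2 to 5 without each library, and with library totals 2 were lower and 5 higher (median 0.09). Acta2, the smooth muscle actin of activated stellate cells, fell from 7.43 and 6.68 CPM to 1.562 and 1.001 CPM, whereas Col1a1 overlapped, at 29.4 and 37.0 CPM and then 35.8 and 20.8 CPM. Cholangiocyte markers summed to 203 and 178 and then 253 and 266, with 3 of 12 higher and none lower (5 and 0 with library totals; 1 to 3 higher without each library). Krt19, a keratin of bile ducts, was at 1.31 and 2.30 CPM and then 1.77 and 0.876 CPM, and Sox9 overlapped between groups too. None of 9 markers of lymphocytes and neutrophils was called. Of the red cell markers, Hba-a1 and Hba-a2 had no count, and 1 of 2 tested fell (1 with library totals). This was Beta-s, a beta-globin gene, from 18.1 and 11.7 CPM to 6.25 and 4.51 CPM (log2 -1.475 ± 0.32, adjusted p = 0.0053). Its call was lost without p53KO TAM replicate 1 or DKO TAM replicate 2. The part that any of these cells played in the gene groups above was not tested.

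Some of the largest falls were in genes that were high in the tamoxifen controls and low without tamoxifen. Cyp17a1, a steroid hydroxylase, was at 6.15 and 6.86 CPM in p53KO, at 132 and 130 CPM in p53KO TAM and at 13.02 and 18.9 CPM in DKO TAM (log2 -3.04 ± 0.23, adjusted p = 1.3e-06). Slc22a26, an organic anion transporter, was at 0.512 and 0.429 CPM in p53KO, 32.0 and 40.5 CPM in p53KO TAM and 1.46 and 1.25 CPM in DKO TAM, among the smallest p of the comparison (log2 -4.71 ± 0.27, adjusted p = 3e-08). Clic3, an intracellular chloride channel protein, was at 0.512 and 0.214 CPM, 24.0 and 30.7 CPM and 1.15 and 0.876 CPM in the same order. Ptgds, a prostaglandin D2 synthase, was at 0.854 and 1.29 CPM, 28.9 and 31.9 CPM and 0.104 and 0.626 CPM, and the homeobox gene Cux2, known as female-biased in mouse liver, at 0.854 and 0.643 CPM, 8.89 and 8.14 CPM and 0.312 and 0.501 CPM. For these 5 genes the DKO TAM livers were closer to the livers without tamoxifen than to the tamoxifen controls. Alb showed another order, at 71558 and 71735 CPM in p53KO and at nearly the same level in p53KO TAM. The tamoxifen and the other livers were separate experiments, and the label of age is absent for the former, so tamoxifen cannot be told apart from these differences. Of 22 genes expressed more in female mouse liver 9 fell and 1 rose (median log2 -1.46; 9 and 2 with library totals), with 4 lower without DKO TAM replicate 2 and 6 to 7 without each other library. Mup3, a major urinary protein with close copies, is male-biased and fell from 2721 and 3469 CPM to 542 and 463 CPM. Of 22 genes expressed more in male liver 12 fell and 1 rose (median -1.97; 10 and 1 with library totals), with 6 to 9 lower without each library. Genes of both kinds thus fell, and Mup2, Mup11 and Cyp3a41b had no count in any of the 4 libraries. Hsd11b1, which reactivates glucocorticoid and lies at chr1:193221641-193264045 (minus strand), was high in both kinds of control, at 493 and 409 CPM in p53KO and 335 and 358 CPM in p53KO TAM, and at 69.6 and 58.1 CPM in DKO TAM (log2 -2.44 ± 0.15, adjusted p = 3.5e-08).

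**Figure D3:**
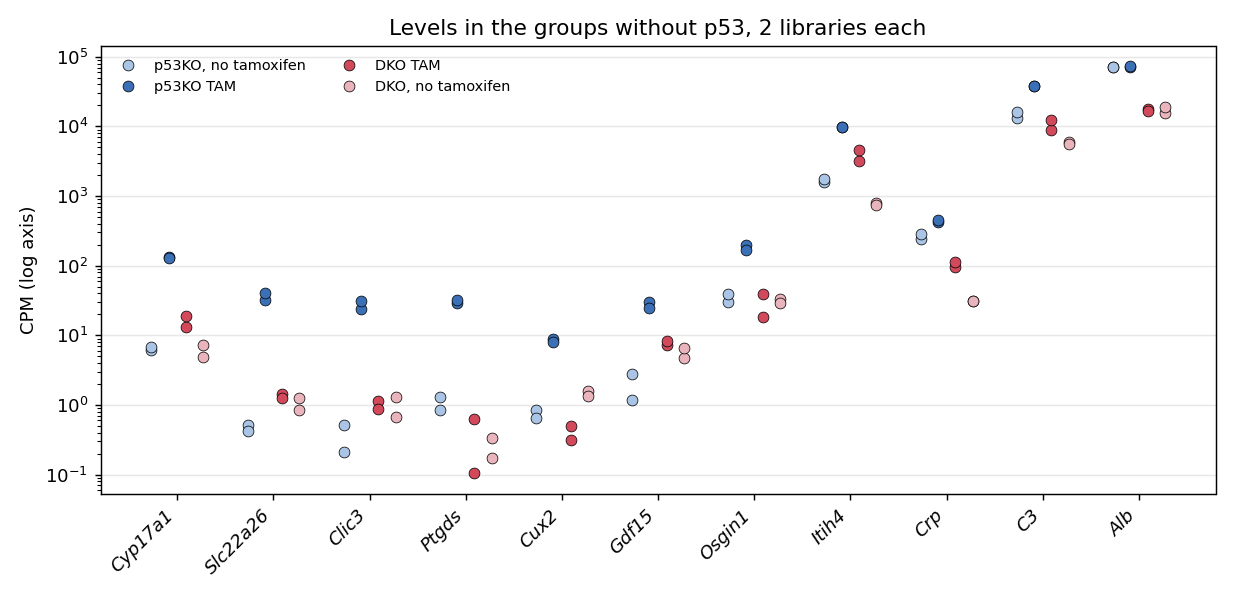
Level of 11 genes in the 4 groups that lack p53, as CPM on a log axis with 1 point per library and 2 libraries per group. Cyp17a1, Slc22a26, Clic3, Ptgds, Cux2, Gdf15 and Osgin1 are high in p53KO TAM alone, whereas Alb is alike in both controls and low in both deleted groups.

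The share of genes called lower climbed with their level in normal liver. Genes were ranked by their mean level in FF livers, which take no part in the comparison, and divided into 10 equal groups. The share called lower was 1.61% in the lowest group and 27.4% in the highest, and the share called higher was 11.8% and 5.28%. With library totals the shares called lower were 1.45% and 13.9%, a gradient in the same direction, but the shares called higher were 21.3% and 33.9%, the reverse of the gradient above. The median FF level was 57.4 CPM for genes called lower, 15.9 CPM for genes called higher and 17.3 CPM for all 13065 protein-coding genes with a single locus. Low counts also limit which genes can be called, so the part of detection in this gradient was not tested. Over 10 groups of genomic span the share called lower ranged from 8.8% to 12% and the share called higher from 6.27% to 11.6%. The median span was 23.1 kb in genes called higher, 24.2 kb in genes called lower and 22.9 kb in all, and the median summed exon length was 2.91, 2.89 and 2.92 kb.

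**Figure D4:**
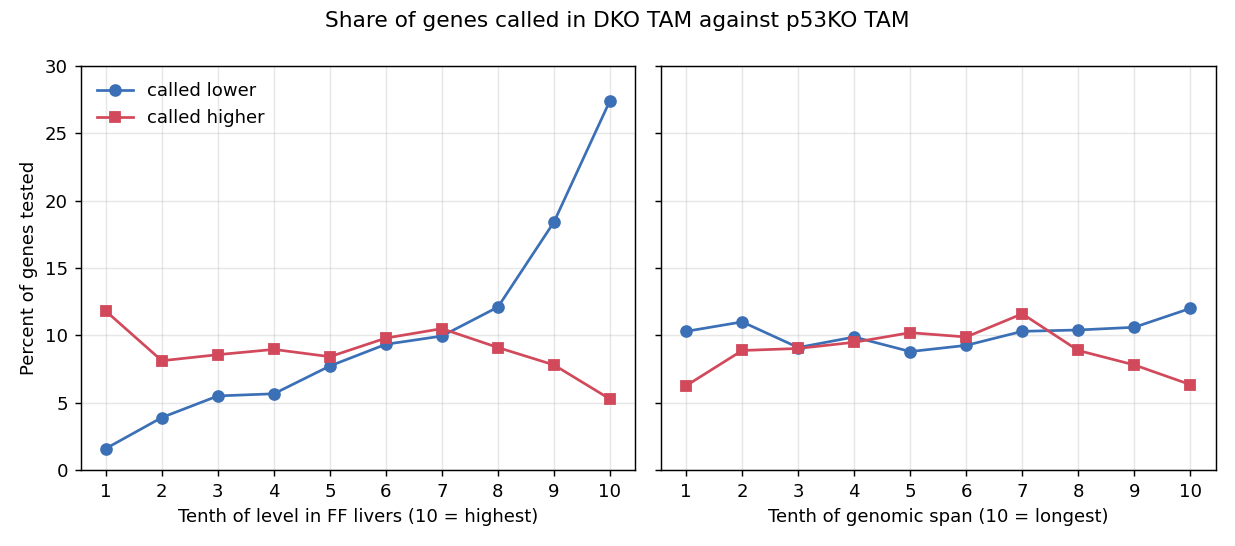
Percent of genes called lower (blue circles) and higher (red squares) in DKO TAM against p53KO TAM, in 10 equal groups by the level in FF livers (left) and by genomic span (right). The blue line on the left climbs from 1.61% to 27.4%, and both lines on the right stay between 6.27% and 12%.

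The early state was compared with that of livers in which Alb-Cre had deleted Gdown1 from development on. In DKO against p53KO 3516 genes were higher (25.7%) and 3525 lower (25.7%). The 2 comparisons share no library. Of the genes that rose after tamoxifen 609 were also higher in DKO, which is 51.7% of the former and 17.3% of the latter, and of those that fell 944 were also lower, 68.4% and 26.8%. Opposite calls were made for 97 genes that were higher early and lower in DKO (8.23% of those higher early) and for 107 that were lower early and higher in DKO (7.75%). A further 473 of the higher genes and 329 of the lower genes were called only early. A test of the difference between the 2 effects within the same model called 3782 genes (27.6%), 1951 with a more positive early effect (14.2%) and 1831 with a more negative one (13.4%). It called all 97 and all 107 genes of opposite direction, but only 175 of the 473 and 141 of the 329 called in the early comparison alone.

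Some leading genes of the early comparison were not separated from their state in DKO by that test. The early effect minus the constitutive one was -0.06 ± 0.24 for Alb (log2, adjusted p = 0.89), -0.37 ± 0.22 for Uroc1 (adjusted p = 0.23), 0.38 ± 0.17 for Polr2a (adjusted p = 0.11) and -0.54 ± 0.25 for C3 (adjusted p = 0.13). Polr2a was at 113 and 120 CPM in p53KO and 297 and 313 CPM in DKO. A p that misses the threshold does not show that these effects were equal.

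Mitotic genes rose early but stayed far below DKO. All 40 were higher in DKO, with a median log2 difference of 4.82, and the early effect was called smaller for 33 and larger for none. Top2a had an early effect of 0.86 and a constitutive one of 5.003 (difference -4.14 ± 0.29, adjusted p = 6.1e-07), and its level was 15.8 and 15.3 CPM in DKO TAM and 212 and 198 CPM in DKO. Replication genes were higher in DKO for 31 of 40, and 25 of them had a called smaller early effect. Markers of other cells differed too. Of 25 stellate and fibroblast markers 23 were higher in DKO and 22 had a more negative early effect, and of 24 macrophage markers these numbers were 21 and 20. The genes named for opposite calls included Nid1, of basement membrane, which was at -0.63 early and 2.45 in DKO (difference -3.08 ± 0.22) and Fbn1, fibrillin, at -0.78 and 2.56 (difference -3.34 ± 0.26). The early call of Nid1 was lost without p53KO TAM replicate 1 or DKO TAM replicate 2, that of Fbn1 without DKO TAM replicate 2, and both with library totals. Actg1 fell early by 1.49 and was higher in DKO by 1.40, and Tubb5 fell by 1.07 and was higher by 1.43, with both early calls held without each library.

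The fall of complement and coagulation genes was smaller early than in DKO. All 41 complement and coagulation genes were lower in DKO (median -1.48), and for 32 the early effect was called less negative. Serpina1e had log2 differences of -3.43 early and -7.71 in DKO (difference 4.28 ± 0.32, adjusted p = 7e-07), Slco1a1 of -2.03 and -4.61 (difference 2.58 ± 0.25) and C8b, of the membrane attack complex, of -0.90 and -3.27 (difference 2.37 ± 0.20). C6 was among the genes of opposite direction, at 1.04 early and -1.34 in DKO (difference 2.38 ± 0.23, adjusted p = 3.9e-06), and so was Aadat, at 0.94 and -1.56 (difference 2.49 ± 0.21). In oxidative phosphorylation 43 of 59 genes were lower in DKO and none higher (median -0.71), against 13 higher and 1 lower early. The difference was called for 43, all with the more positive effect early. Female-biased genes gave the reverse, with 10 of 22 higher and 2 lower in DKO (median 1.88), and 10 with a more negative early effect. The early and the constitutive livers differed in Cre driver, tamoxifen and experiment, and these cannot be told apart from the time since deletion. All DKO values are on the composition-adjusted scale, with factors of 0.826 and 0.830 in p53KO and 1.405 and 1.413 in DKO. The factors were 0.867 and 0.849 in p53KO TAM and 1.095 and 1.092 in DKO TAM. List counts and medians in DKO were not read with library totals, so the part of scaling in these contrasts was not tested.

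**Figure D5:**
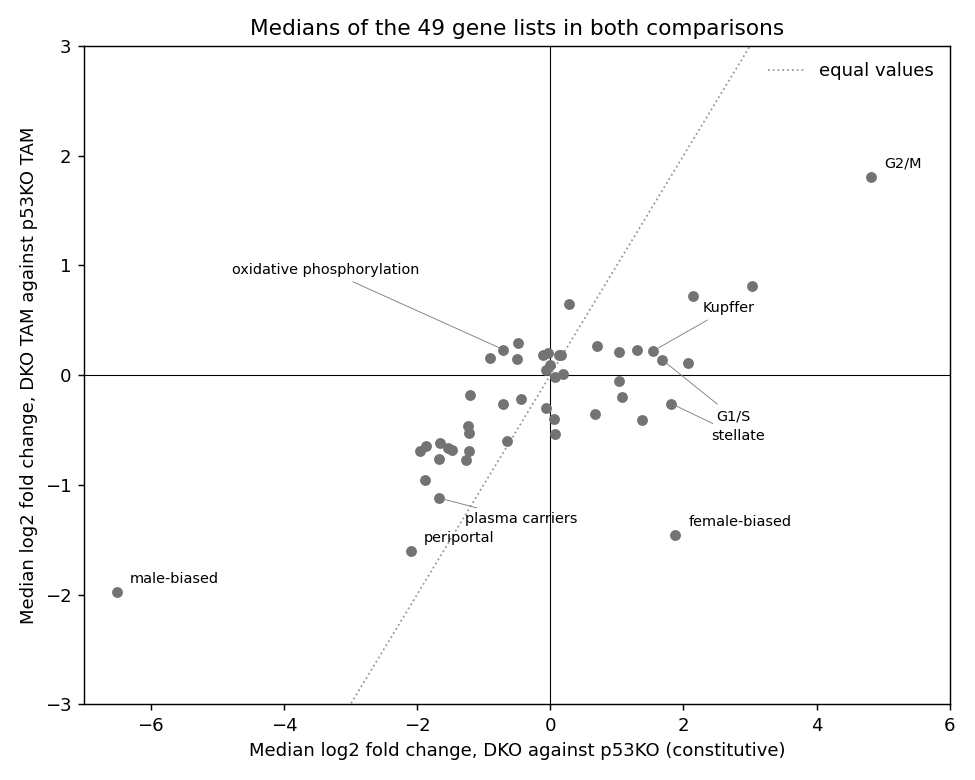
Median log2 fold change of each of the 49 gene lists in DKO TAM against p53KO TAM (vertical axis) and in DKO against p53KO (horizontal axis), with 1 point per list and a dotted line at equal values. The G2/M list lies at 1.81 and 4.82 and plasma carriers at -1.12 and -1.67. On this composition-adjusted scale oxidative phosphorylation, the stellate list and the female-biased genes have medians of opposite sign in the 2 comparisons. With library totals the early stellate median is 0.09.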

How the data were processed

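Whole-liver total RNA was sequenced with the SMARTer Stranded Total RNA kit, per the labels' protocols. Reads were processed with CASAVA 1.82, HISAT2 and featureCounts on mm10 (GRCm38), per the submitters' processing notes. The deposited values are raw counts per gene for 23420 genes. The program line of 4 other files names featureCounts 1.6.4 without strand or multiple-mapping options, so overlapping genes and near-identical copies may share or lose reads.

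All 12 libraries, 2 in each of 6 groups, were fitted with 1 group-means model (edgeR 4.0.16 quasi-likelihood, robust, TMM scaling, R 4.3.3) after filterByExpr (minimum count 10). The comparison was DKO TAM minus p53KO TAM, and its difference from DKO minus p53KO was tested as a contrast. Calls used an adjusted p under 0.05. SE is the log2 fold change over the root of F. A mean of 2 libraries against 2 cannot reach p under 0.333 in an exact permutation test. Code was tested on simulated data. The members and the 49 gene lists were chosen with earlier results of these data known. Of 1307 genes listed, 1299 were found and 1245 tested. Named genes were, in each direction, the called genes leading in fold, p or CPM difference among those with a mean of at least 5 CPM, and up to 6 called members of each list, with uncalled members given as such. Leaders in fold, p or CPM difference also had to show no overlap between the groups. Their separation was thus fixed by the rule and is no further evidence. Mup, Serpina1, Cyp2c, haemoglobin and histone families are uncertain. Alternatives were other scalings, filters, tools (DESeq2 1.42.0, limma 3.58.1), thresholds and libraries left out.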

Additional observations from a re-analysis of the deposited data

Results flagged for a closer look

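Effects that differed between the early and the constitutive deletion, by the test of the difference itself, are listed with their values (early log2 effect minus that in DKO). The test called 3782 genes. More positive early effects were found for Serpina1e (4.28), Serpina3k (2.67), Slco1a1 (2.58), Aadat (2.49), C6 (2.38) and C8b (2.37). More negative early effects were found for Top2a (-4.14), Fbn1 (-3.34), Nid1 (-3.08), Actg1 (-2.89), Chka (-2.85) and Tubb5 (-2.5). Groups of 2 libraries are too small for a check of single libraries within a group.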

How the results depend on the processing

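No named gene changed sign under the alternatives run, but calls were lost. Of the 305 named genes, 48 lost their call with library totals and 32 with DESeq2. The early median of 8 of the 49 lists changed sign with library totals. These were apolipoproteins, acute phase proteins, hepatocyte transcription factors, stellate markers, ribosomal proteins, the integrated stress response, NRF2 targets and the glucocorticoid response. Medians in DKO were not read with library totals. Against the reported 2559 called genes (1179 higher, 1380 lower), library totals gave 4932 (4346 and 586), an adjusted p under 0.01 gave 1201 (477 and 724), a 2-fold minimum gave 961 (455 and 506), and DESeq2 gave 777 higher. Leaving out each library in turn gave 1188 to 1952 genes, 468 to 877 higher and 720 to 1075 lower. For the difference from DKO (3782 genes, 1951 with the more positive early effect and 1831 with the more negative), upper quartile scaling gave 1158 more positive, library totals 668 and 3376, an adjusted p under 0.01 gave 2069 (1020 and 1049), and a 2-fold minimum gave 2348, of which 820 more positive. Leaving out each library gave 2550 to 3442, 1234 to 1825 more positive and 1210 to 1641 more negative. The median FF level of genes called higher (15.94 CPM) was 26.61 CPM with library totals and 2.548 CPM with the 2-fold minimum, and that of genes called lower (57.35 CPM) was 29.42 CPM with the 2-fold minimum. The cause of these shifts was not tested beyond the construction of each alternative. Of 305 named genes, 304 were called as reported and 166 were called the same way with each of the 4 libraries left out in turn. With the replicate number as a block, 2526 genes were called (1156 higher, 1370 lower). The numbers gave no sign of pairing, since the deviations of same-numbered libraries had a correlation of -0.013 over 13693 genes. Genes near 3 counts a library, 0.312 to 0.626 CPM, are at the limit of detection here.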

Other observations

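Some called genes lie side by side in the genome; these sites were picked after their values were seen, and no test of position was made. On chromosome 2 (mm10), Clic3 (25456843-25458772, plus strand), BC029214 (25459488-25461094, minus strand) and Ptgds (25466712-25469749, minus strand) follow each other. BC029214 was at 6.83 and 5.79 CPM in p53KO, 49.5 and 54.1 CPM in p53KO TAM, 2.50 and 2.38 CPM in DKO TAM and 3.052 and 2.995 CPM in DKO, the order already given for Clic3 and Ptgds. Early log2 differences were -4.71 for Clic3, -4.39 for BC029214 and -6.40 for Ptgds. Abca2, a lipid transporter upstream of Clic3, fell less, from 122.5 and 133.8 CPM to 57.71 and 39.68 CPM (log2 -1.39).

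On chromosome 5 the albumin gene family showed both directions. Afp (90490714-90508907) lies between Alb and Afm on the same strand. The early log2 difference was -2.09 for Alb and -1.82 for Afm, and 1.38 for Afp, from 6.26 and 3.13 CPM to 14.6 and 10.9 CPM. In DKO the values were -2.04 for Alb, -2.26 for Afm and 4.24 for Afp, which stood at 68.5 and 65.2 CPM there.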
